A study of Mus musculus with 13 samples.

Results

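The genes described here encode the proteins of the mitochondrial ribosome (mitoribosome). They were chosen by symbol, as every symbol that begins with Mrpl or Mrps followed by a number, without pseudogenes, and with a mean of at least 2 TPM, and they come to 77 of the 22406 symbols of each table, 48 of the large subunit (Mrpl) and 29 of the small subunit (Mrps). The study profiled ribosome footprints, the stretches of mRNA that ribosomes protect from nuclease, in mouse fibroblasts treated with thapsigargin (Tg), which blocks the calcium pump of the endoplasmic reticulum (ER) and brings on ER stress. Mouse embryonic fibroblasts (MEFs), either PERK WT or PERK -/-, were profiled untreated and after 1, 2, 5 and 8 h of 1 μM Tg. NIH3T3 cells, a mouse fibroblast line, were profiled untreated and after 2 and 7 h of 0.2 μM Tg.

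PERK, the product of Eif2ak3, is an ER kinase that phosphorylates the initiation factor eIF2α under ER stress and so lowers translation initiation. The mitoribosome translates the few oxidative phosphorylation subunits encoded in mitochondrial DNA, while its own proteins are encoded in the nucleus, translated on cytosolic ribosomes and imported. The footprints on Mrp transcripts therefore report on cytosolic ribosomes, and no RNA sequencing was used here, so that mRNA level and translation cannot be told apart.

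Each condition had 1 library, so no difference has a replicate check, and every counting interval given covers counting error only. The 13 libraries held from 2525029 expected counts (PERK WT, Tg 2 h) to 14799515 (PERK -/-, Tg 2 h). Among PERK WT MEFs the totals were 11949174 untreated and 3609292, 2525029, 5617552 and 11178364 after 1, 2, 5 and 8 h. Among PERK -/- MEFs they were 6735073 untreated and 10011722, 14799515, 8035736 and 7446112 at the same times. In NIH3T3 cells they were 11121006 untreated and 2569965 and 5756011 after 2 and 7 h. The median member had 470 counts in the untreated PERK WT library, and the lowest member had 18 in the PERK WT library of 2 h.

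Eif2ak3, the targeted gene, was checked in every library. Its counts scaled to the library total (CPM) were 21.3, 14.4, 19.01, 33.3 and 32.7 in PERK WT MEFs untreated and after 1, 2, 5 and 8 h. In PERK -/- MEFs they were 10.99, 8.99, 7.64, 13.2 and 19.1, and in NIH3T3 cells 34.6 untreated, 25.7 after 2 h and 49.7 after 7 h. The PERK -/- value was the lower at each time, but the highest PERK -/- value lay above the 2 lowest PERK WT values. The untreated PERK -/- library had a log2 ratio of -0.95 to the untreated PERK WT library by CPM (counting interval -1.35 to -0.57) and of 0.89 by TPM, so that the measures went opposite ways. Footprints were thus counted on Eif2ak3 in every library labelled PERK -/-, and values summed over the whole coding sequence cannot show a deletion of part of it. The position of the deletion was not used here, and the genotypes below are as labelled.

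Mrp transcripts took a near-constant share of the footprints. Members made up 0.318% of all counts in untreated PERK WT MEFs and 0.313%, 0.330%, 0.338% and 0.341% after 1, 2, 5 and 8 h of Tg. The share was 0.343% in untreated PERK -/- MEFs and 0.339%, 0.357%, 0.337% and 0.343% at those times. It was 0.436% in untreated NIH3T3 cells, 0.418% after 2 h and 0.435% after 7 h, and the NIH3T3 shares, from a table of their own, were all above the MEF shares.

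The median member stood at 67.9 TPM in untreated PERK WT MEFs, 76.4 TPM in untreated PERK -/- MEFs and 99.8 TPM in untreated NIH3T3 cells, where the median expressed gene stood at 19.2, 21.8 and 21.6 TPM. Mean TPM over the 10 MEF libraries ranged 11.5-fold, from 20.6 for Mrpl44, whose protein carries a ribonuclease III-like fold, to 238 for Mrps14 of the small-subunit head. Mrpl33 was the most abundant of the large subunit with a mean of 195 TPM, and Mrps31 the least abundant of the small subunit with 36.8 TPM. Mrps14 lay between 149.7 and 198 TPM in the 5 PERK WT libraries and between 274 and 343 TPM in the 5 PERK -/- libraries, without overlap. Other members did not overlap either, among them Mrpl37, Mrpl45, Mrps18b, Mrps18c, Mrps22 and Mrps31. The share of all expressed genes without overlap was not counted, so that it cannot be said whether this is particular to these members. Some gaps were small, as for Mrps22, with at most 64.3 TPM in PERK WT and at least 65.0 TPM in PERK -/- libraries. The member's highest MEF value over its lowest had a median of 1.86 and was smallest for Mrps27, at 1.33, and largest for Mrpl41, at 3.60.

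**Figure D1:**
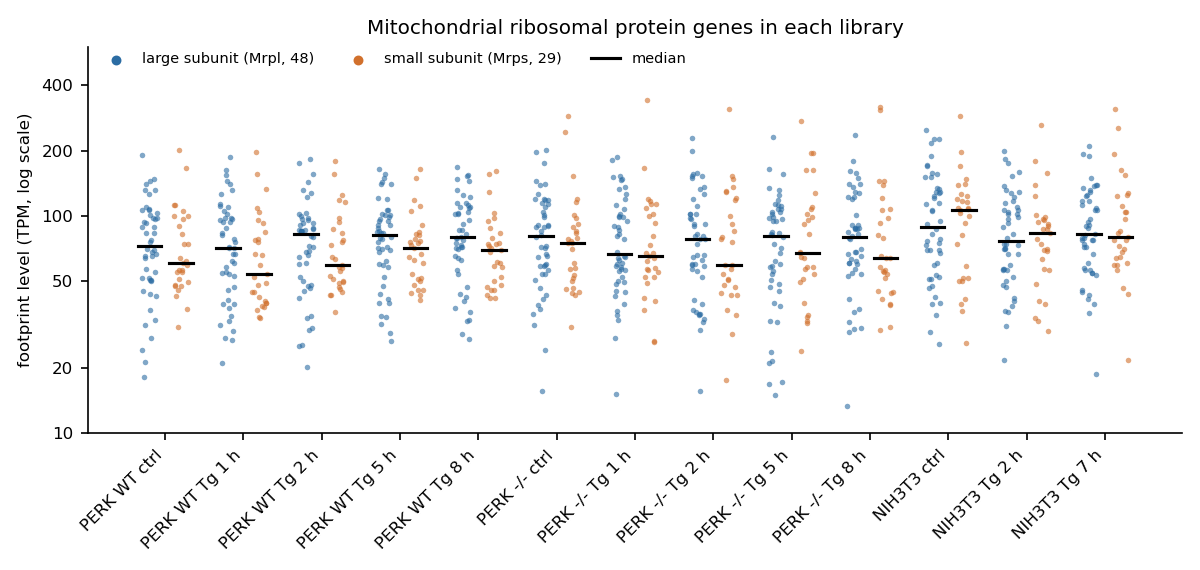
TPM of the 48 large-subunit and 29 small-subunit members in each of the 13 libraries on a log axis, with the median of each subunit marked. The large-subunit median lay above the small-subunit median in every MEF library and in NIH3T3 cells at 7 h, and below it in NIH3T3 cells untreated (89.2 against 106 TPM) and at 2 h.

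Control levels ranked members alike in the MEF genotypes and less so between MEFs and NIH3T3 cells. Across the 77 members, which are not replicates, Spearman's rho of TPM between untreated PERK WT and PERK -/- MEFs was 0.92, and between untreated PERK WT MEFs and NIH3T3 cells 0.63. Mrps33 of the small subunit had a mean of 93.1 TPM over the MEF libraries, rank 27, and 287 TPM over the NIH3T3 libraries, rank 1. Mrpl24, beside the peptide exit, had 106 TPM in MEFs, rank 17, and 23.2 TPM in NIH3T3 cells, rank 77.

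The members as a list stayed close to their controls. After 1, 2, 5 and 8 h of Tg the median log2 change in PERK WT MEFs was -0.04, with an interval from -0.15 to 0.01, then 0.03 (-0.07 to 0.11), 0.11 (0.00 to 0.20) and 0.10 (-0.04 to 0.19). Under TMM scaling it was -0.08, -0.03, 0.03 and 0.01 and under DESeq2 scaling -0.07, -0.02, 0.03 and 0.00, so that the 2 h value changed sign and those of 5 and 8 h came close to 0. For PERK -/- MEFs the TPM median was -0.12 (-0.22 to 0.00), -0.02 (-0.16 to 0.08), -0.08 (-0.16 to 0.07) and 0.01 (-0.07 to 0.08). There TMM gave -0.04, 0.07, -0.07 and -0.06 and DESeq2 -0.04, 0.09, -0.09 and -0.06, and CPM gave 0.06 at 2 h. In NIH3T3 cells the TPM median was -0.23 (-0.31 to -0.13) after 2 h and -0.02 (-0.20 to 0.14) after 7 h, against -0.18 and 0.07 under TMM, -0.17 and 0.08 under DESeq2 and -0.10 and -0.04 by CPM.

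The median of all expressed genes, 10432 in MEFs and 10117 in NIH3T3 cells, was -0.11 and -0.13 in the 2 h libraries of PERK -/- MEFs and NIH3T3 cells, and between -0.06 and 0.04 in the other Tg libraries. Relative to all expressed genes, the member median was -0.04, 0.03, 0.11 and 0.09 in PERK WT MEFs, -0.05, 0.10, -0.08 and -0.04 in PERK -/- MEFs, and -0.10 and -0.02 in NIH3T3 cells. By CPM the same difference was -0.05, -0.02, 0.02 and 0.00, then -0.00, 0.17, -0.05 and -0.05, and -0.04 and 0.06, with the other sign at 2 h in PERK WT MEFs and at 7 h in NIH3T3 cells. Against expressed genes of like control TPM the difference took the other sign at 1 h in PERK WT MEFs (0.048). It also did so in NIH3T3 cells at 2 h (0.023) and 7 h (0.069). With the trend on coding GC content removed it was -0.071, -0.065, -0.016 and -0.015 in PERK WT MEFs, 0.064, 0.153, -0.032 and -0.044 in PERK -/- MEFs, and -0.054 and 0.049 in NIH3T3 cells, with the other sign at 2, 5 and 8 h in PERK WT MEFs, at 1 h in PERK -/- MEFs and at 7 h in NIH3T3 cells. A positive change was found for 30, 42, 48 and 45 of the 77 members in PERK WT MEFs (38.96%, 54.5%, 62.3% and 58.4%), beside 46.5%, 48.6%, 50.04% and 50.4% of all expressed genes, of which those at the floor in both libraries count as unchanged. For PERK -/- MEFs it was 30, 36, 34 and 39 members (38.96%, 46.8%, 44.2% and 50.6%) beside 35.8%, 32.7%, 44.8% and 53.7%, and for NIH3T3 cells 22 and 38 (28.6% and 49.4%) beside 35.1% and 44.03%.

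**Figure D2:**
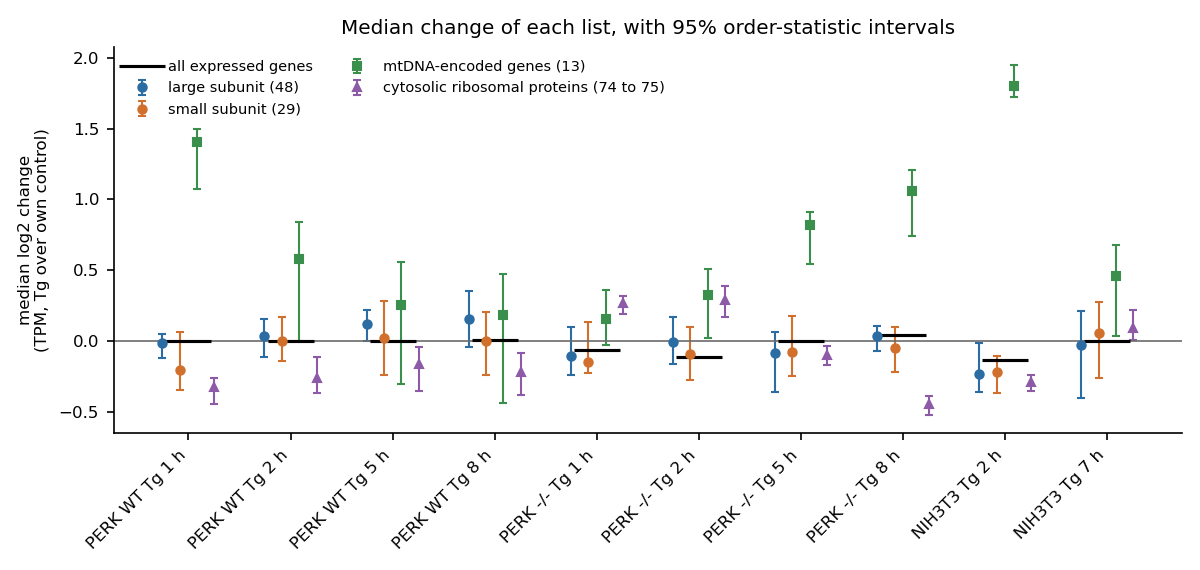
Median log2 TPM change against the cells' own control, with its interval, of large-subunit members, small-subunit members, mtDNA-encoded genes and cytosolic ribosomal proteins in the 10 Tg libraries, and the median of all expressed genes as bars. Both subunits stayed between -0.23 and 0.15, while the mtDNA-encoded genes peaked at 1.41 (PERK WT, 1 h), 1.06 (PERK -/-, 8 h) and 1.80 (NIH3T3, 2 h).

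Members at least 2-fold from their control were few, at most 5 of 77 in a library by TPM. Those 5 were down in PERK -/- MEFs at 5 h, where the share down was not below that of all expressed genes. In PERK WT MEFs 1 of 77 was 2-fold up in each treated library, always Mrpl27 (after 1, 2, 5 and 8 h 4.33%, 5.66%, 5.86% and 6.45% of all expressed genes), and 0 were 2-fold down (2.29%, 4.01%, 3.55% and 3.87% of all). Among PERK -/- libraries 0 members were 2-fold up (0.719%, 0.623%, 3.26% and 3.28% of all), and 1, 2, 5 and 1 were 2-fold down (3.38%, 5.78%, 4.77% and 2.73% of all). The member down at 1 h was Mrps12, joined at 2 h by Mrpl34. With counts thinned to the smallest library the Mrpl27 calls were lost at each of the 4 times. The thinned values are per library total, come from 1 random draw and share a control of 73 Mrpl27 counts. They are therefore not 4 separate results, nor results about depth alone. By CPM without thinning the Mrpl27 call was lost at 1 h only. The Mrps12 call of 1 h was lost in CPM, TMM and DESeq2 scaling. It was also lost with thinned counts and with the trend on coding GC content removed. Thinned counts gave 1 member up in PERK -/- MEFs at 5 h, Mrps18c (5.53% of all), and 6 down (8.685%), with Mrpl34, Mrpl36 and Mrpl47 joining and Mrpl17 and Mrpl57 lost. In NIH3T3 cells 1 member, Mrps31, was 2-fold up in both treated libraries (5.76% and 7.01% of all), while 0 were down after 2 h (3.76%) and 3 after 7 h (8.06%). Under TMM and DESeq2 the count at 7 h turned to 3 up (8.66% and 8.94% of all) and 1 down (6.51% and 6.29%), with Mrpl50 and Mrpl55 joining Mrps31 and Mrpl53 alone still down. At 8 h those scalings added Mrpl30 as 2-fold down in PERK WT MEFs (4.99% and 5.03% of all) and Mrpl52 in PERK -/- MEFs (3.21% and 3.20%). By TPM, 65 of 77 members (84.4%) stayed within 2-fold of the control in all 10 comparisons, beside 61.6% of the 9367 genes expressed in both tables, and 76 (98.7%) did so in the 4 of PERK WT MEFs, beside 82.7% of all expressed genes. Members had a higher median TPM than all expressed genes, and these shares were not matched for level.

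The untreated PERK -/- library had 0 members at least 2-fold above the untreated PERK WT library (6.04% of all expressed genes) and 0 at least 2-fold below it (1.97%). The median member differed by 0.17 (interval 0.03 to 0.24) and the median expressed gene by 0.08, with 50 members higher (64.9%, beside 57.2% of all expressed genes) and 27 lower.

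**Figure D3:**
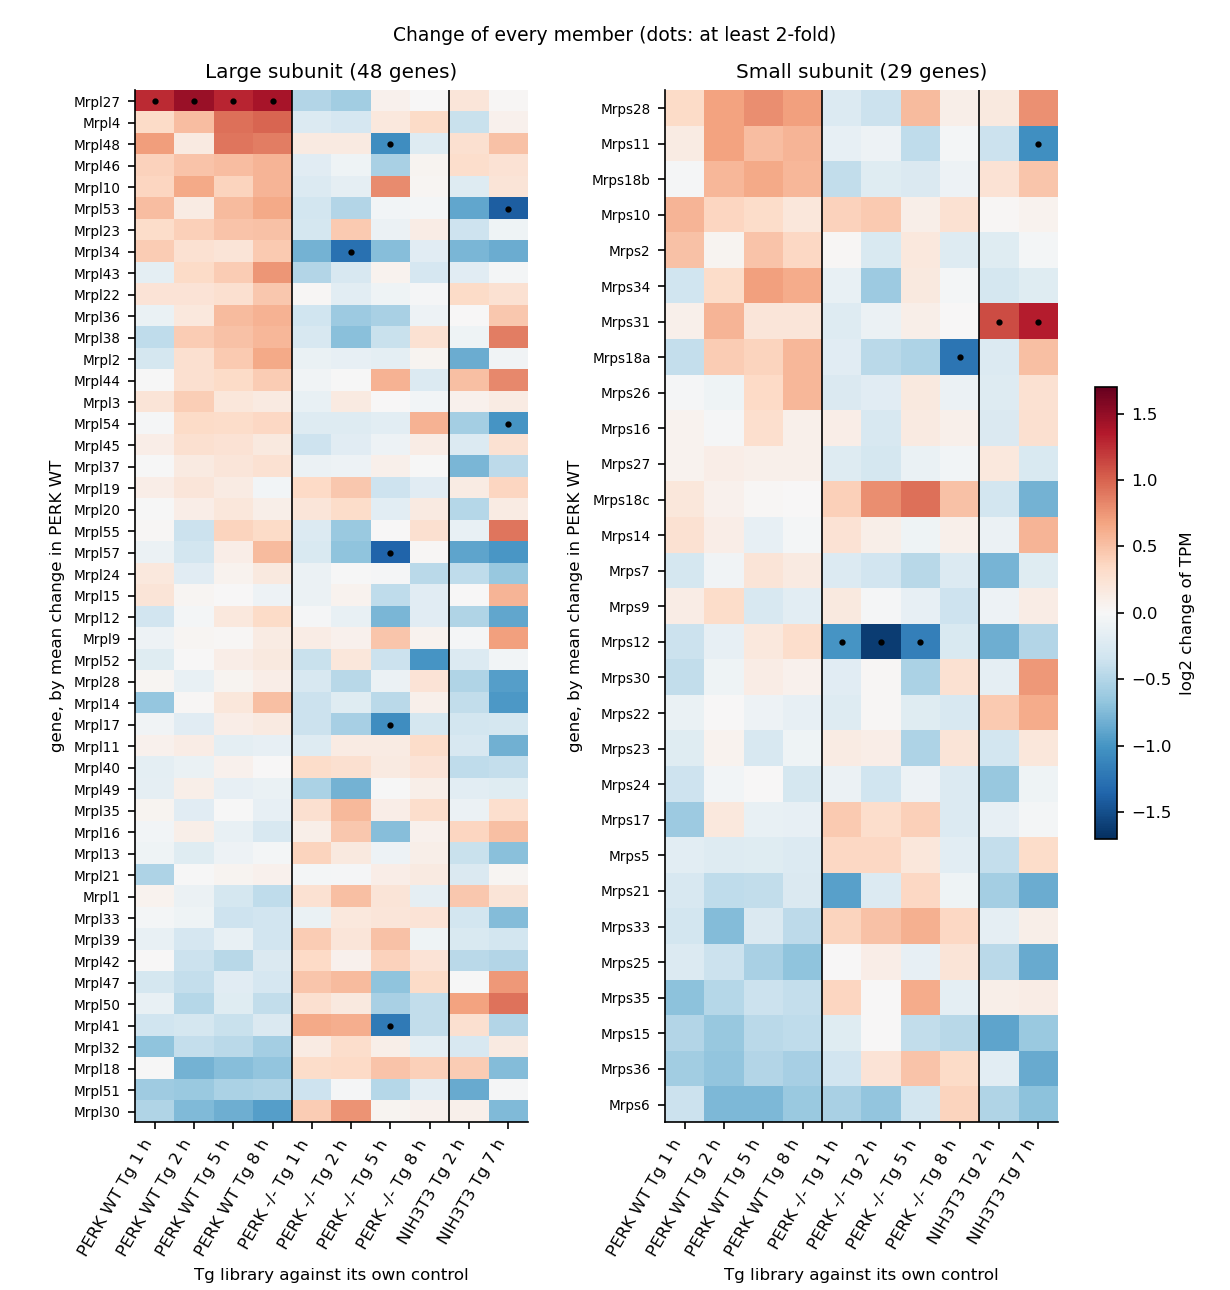
Heat map of the log2 TPM change of each of the 77 members in the 10 Tg libraries, split by subunit and ordered by the mean change in PERK WT MEFs, with a dot where the change is at least 2-fold. Mrpl27 carries dots in the 4 PERK WT columns, Mrps12 in 3 PERK -/- columns and Mrps31 in the 2 NIH3T3 columns.

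The large subunit was compared with the small one as the selection of members asked. The large-subunit median minus the small-subunit median came to 0.19, with an interval from -0.10 to 0.35, then to 0.03 (-0.19 to 0.22), 0.10 (-0.19 to 0.38) and 0.15 (-0.13 to 0.46) in PERK WT MEFs after 1, 2, 5 and 8 h. It was 0.04 (-0.27 to 0.26), 0.08 (-0.16 to 0.34), -0.00 (-0.38 to 0.22) and 0.09 (-0.09 to 0.27) in PERK -/- MEFs. In NIH3T3 cells it was -0.01 (-0.18 to 0.25) and -0.09 (-0.52 to 0.32), and both took the other sign by CPM (0.02 and 0.01) and with thinned counts (0.025 and 0.03). Mrps18a and Mrps30 are counted with the small subunit by symbol, although their proteins sit in the large one, and moving them turned the 7 h difference to 0.03. Among members with at least 100 counts the difference in PERK WT MEFs came to 0.016 at 1 h and, with the other sign, to -0.049 at 2 h. In PERK -/- MEFs it took the other sign at 1 h with thinned counts (-0.022) and with the trend on coding GC content removed (-0.032), and at 5 h without Mrps36 (0.002). Over the alternatives tried it ran there from 0.003 to 0.091 at 2 h and from -0.182 to 0.002 at 5 h. The intervals join those of the subunit medians, treat members as independent and are from 0.36 to 0.84 log2 wide, so that differences as small as those found are not detectable with these numbers of genes.

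By count, 20, 27, 32 and 30 of the 48 large-subunit members had a positive change in PERK WT MEFs, in order of time, beside 10, 15, 16 and 15 of the 29 small-subunit members. For PERK -/- MEFs the counts were 18, 23, 20 and 27 beside 12, 13, 14 and 12, and for NIH3T3 cells 15 and 23 beside 7 and 15. Summed TPM of the large over that of the small subunit was 1.73 in untreated PERK WT MEFs and 1.86, 1.78, 1.83 and 1.90 after Tg, 1.64 in untreated PERK -/- MEFs and 1.64, 1.69, 1.47 and 1.61 after Tg, and 1.67, 1.65 and 1.496 in NIH3T3 cells at 0, 2 and 7 h. The ratio of the subunit medians overlapped between the genotypes, with 1.21 untreated and 1.33, 1.39, 1.15 and 1.14 after Tg in PERK WT MEFs and 1.08 untreated and 1.025, 1.32, 1.198 and 1.25 after Tg in PERK -/- MEFs. Without Mrps14 the ratio of sums overlapped as well, from 1.87 to 2.055 in PERK WT MEFs and from 1.65 to 1.93 in PERK -/- MEFs.

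Homologues of bacterial ribosomal proteins (44 members) and mitochondria-specific proteins (29) were set side by side. The homologues had medians of -0.00, 0.02, 0.04 and 0.08 in PERK WT MEFs, -0.06, -0.00, -0.08 and 0.02 in PERK -/- MEFs, and -0.27 and -0.03 in NIH3T3 cells. The mitochondria-specific proteins had -0.13, 0.06, 0.12 and 0.16, then -0.19, -0.02, -0.11 and -0.03, and -0.22 and -0.02. The 4 members in neither class (a median of 0.00, 0.10, 0.51 and 0.45 in PERK WT MEFs) are few and were not described further.

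Mrpl27, the homologue of a bacterial protein that reaches toward the peptidyl transferase center, was by TPM the member with the largest rise in each PERK WT library. It stood at 63.7 TPM in untreated PERK WT MEFs and at 154, 175, 156 and 168 TPM after 1, 2, 5 and 8 h. PERK -/- MEFs had 90.1 TPM untreated and 63.9, 60.03, 94.7 and 90.5 TPM after Tg, and NIH3T3 cells had 132, 153 and 134 TPM. All 4 treated PERK WT values lay above every other MEF value, while the NIH3T3 values stayed within a narrow range. The log2 changes in PERK WT MEFs were 1.27, 1.46, 1.29 and 1.40 by TPM and 0.98 (counting interval 0.70 to 1.26), 1.16 (0.86 to 1.46), 1.03 (0.79 to 1.27) and 1.06 (0.85 to 1.26) by CPM, from 292 counts in the control, so that the 1 h rise fell just short of 2-fold by CPM. With counts thinned to the smallest library, which left 73 in the control, they were 0.73, 0.92, 0.59 and 0.86, all short of 2-fold, and other members rose more, placing Mrpl27 at rank 2, 2, 9 and 4 of 77. These 4 values share 1 random draw of the control and are per library total, as CPM is. TPM weighs counts by the effective length of the transcript forms, and the ratio of TPM to CPM for this gene varied by 0.35 log2 across MEF libraries.

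Mrpl27 lies on the plus strand, and its promoter is shown because the gene rose at every time in PERK WT MEFs. The capitals mark the ETS letters CCGGAAG, which begin 55 bases before the start site, at chr11:94653671-94653820 (+) of RefSeq build GRCm38.p6.
Mrpl27 promoter: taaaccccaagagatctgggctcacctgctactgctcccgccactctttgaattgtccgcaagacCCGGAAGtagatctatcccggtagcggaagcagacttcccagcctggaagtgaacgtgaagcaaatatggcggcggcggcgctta

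Mrps12, a protein of the decoding site of the small subunit, fell by 2-fold or more in 3 PERK -/- libraries. It stood at 53.2 TPM in untreated PERK -/- MEFs and at 26.6, 17.5, 23.8 and 44.3 TPM after 1, 2, 5 and 8 h of Tg. In PERK WT MEFs it stood at 47.5 TPM untreated and at 36.8, 43.02, 53.9 and 58.5 TPM, and in NIH3T3 cells at 99.8, 56.1 and 70.5 TPM. The PERK -/- values of 1, 2 and 5 h lay below all PERK WT values, and the value of 8 h lay among them. The log2 changes in PERK -/- MEFs were -1.002, -1.61, -1.16 and -0.27, with counting intervals by CPM of -1.37 to -0.58, -1.93 to -1.14, -1.57 to -0.69 and -0.65 to 0.10. At 1 h the fall was short of 2-fold by CPM, at -0.97, under TMM and DESeq2, at -0.92, with the GC trend removed, at -0.76, and with thinned counts, at -0.68. With the GC trend removed the falls of 2 and 5 h were -1.29 and -1.11, and with thinned counts, 15 and 12 against 45 in the control, they were -1.585 and -1.91. By TPM the 3 falls rest on 97, 97 and 70 counts against 128 in the control.

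Mrpl34, a large-subunit homologue of a bacterial protein, fell by 2-fold in PERK -/- MEFs at 2 h. Its values were 99.4 TPM in untreated PERK -/- MEFs and 56.9, 41.2, 60.01 and 87.3 TPM after Tg. They were 75.5 TPM in untreated PERK WT MEFs and 102, 90.5, 88.0 and 103 TPM after Tg, and 121, 70.6 and 67.1 TPM in NIH3T3 cells. Every treated PERK WT value was above its control and every treated PERK -/- and NIH3T3 value below its own. The log2 changes were 0.43, 0.26, 0.22 and 0.44 in PERK WT MEFs, -0.80, -1.27, -0.73 and -0.19 in PERK -/- MEFs, and -0.77 and -0.85 in NIH3T3 cells. By CPM the counting interval included 0 in PERK WT MEFs at 2 and 5 h and in PERK -/- MEFs at 8 h. With the trend on coding GC content removed, the PERK WT changes of 2, 5 and 8 h turned to -0.18, -0.27 and -0.11, and the PERK -/- fall at 2 h was -0.94, short of 2-fold.

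The promoters of Mrps12 and Mrpl34 are shown because these genes had the largest member falls of PERK -/- MEFs at 2 h. Capitals mark the ETS letters, which begin 1 base after the start site of Mrps12, at chr7:28741792-28741941 (-), and 37 bases before that of Mrpl34, at chr8:71464806-71464955 (+), in RefSeq build GRCm38.p6.
Mrps12 promoter: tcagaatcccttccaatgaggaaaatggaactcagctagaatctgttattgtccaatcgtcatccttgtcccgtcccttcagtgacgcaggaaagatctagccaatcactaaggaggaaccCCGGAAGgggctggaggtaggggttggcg
Mrpl34 promoter: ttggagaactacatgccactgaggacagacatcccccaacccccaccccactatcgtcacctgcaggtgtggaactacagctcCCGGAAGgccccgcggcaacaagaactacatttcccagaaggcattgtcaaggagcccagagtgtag

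Mrps18c, a small-subunit homologue of a bacterial protein, had the largest member rises of PERK -/- MEFs at 2 and 5 h among those with at least 100 counts, though with the GC trend removed Mrpl30 rose more at 2 h (0.68 against 0.58). It stood at 85.1 TPM untreated and at 113, 147, 163 and 121 TPM after Tg in PERK -/- MEFs, at 74.0 TPM untreated and 84.3, 77.7, 75.1 and 74.1 TPM in PERK WT MEFs, and at 126, 101 and 72.3 TPM in NIH3T3 cells. The treated PERK -/- values lay above all PERK WT values, and the NIH3T3 values fell with time. The log2 changes in PERK -/- MEFs were 0.41, 0.79, 0.94 and 0.50, with counting intervals by CPM that all excluded 0. With thinned counts the 5 h rise was 1.05, past 2-fold.

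The 2 largest rises and the 2 largest falls of each comparison, among members with at least 100 counts in both libraries, are given in order of size on the log2 scale by TPM. They are the extremes of from 39 to 77 members with such counts and so are picked for their size. The rises of PERK WT MEFs were Mrpl27 (1.27) and Mrps10 (0.57) at 1 h, Mrpl27 (1.46) and Mrps28 (0.69) at 2 h, Mrpl27 (1.29) and Mrpl4 (0.94) at 5 h, and Mrpl27 (1.40) and Mrpl4 (0.996) at 8 h. The falls there were Mrps35 (-0.70) and Mrpl32 (-0.68), then Mrpl32 (-0.41) and Mrps25 (-0.36), Mrpl30 (-0.84) and Mrps6 (-0.76), and Mrpl30 (-0.93) and Mrps25 (-0.69). In PERK -/- MEFs the rises were Mrpl47 (0.47) and Mrps17 (0.45), then Mrps18c (0.79) and Mrpl30 (0.77), Mrps18c (0.94) and Mrpl10 (0.80), and Mrpl54 (0.595) and Mrps18c (0.50), and the falls Mrps21 (-0.92) and Mrpl34 (-0.80), then Mrpl34 (-1.27) and Mrpl49 (-0.81), Mrpl17 (-1.05) and Mrpl12 (-0.775), and Mrps18a (-1.24) and Mrpl52 (-0.997). In NIH3T3 cells the rises were Mrps31 (1.11) and Mrpl50 (0.69) at 2 h and Mrps31 (1.34) and Mrpl50 (0.92) at 7 h, and the falls Mrps15 (-0.90) and Mrpl2 (-0.84), then Mrpl53 (-1.40) and Mrps11 (-1.05). The sign of each of these changes held by CPM, under TMM and DESeq2, with thinned counts and with the GC trend removed, though sizes moved, as for Mrps35 at 1 h, at -0.45 by CPM and -0.27 with thinned counts, and Mrpl4 at 8 h, at 1.01 by CPM and 0.63 with the GC trend removed.

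Members moved opposite ways in the MEF genotypes at every time about as often as other genes. Of the 77 members, 4 (5.19%) were up in all 4 treated PERK WT libraries and down in all 4 treated PERK -/- libraries, namely Mrpl34, Mrpl53, Mrps11 and Mrps27, against 4.53% of all expressed genes. In the other direction 3 (3.90%) were down in the former and up in the latter, namely Mrpl18, Mrpl30 and Mrps33, against 3.44% of all, so that the counts are not a result about the members as a list. The 4 treated libraries of a genotype share a control, and the difference between genotypes was not tested. By CPM some of these changes lay within counting error. Among them were those of Mrps27 in PERK WT MEFs and Mrps11 in PERK -/- MEFs at every time. Those of Mrpl30 and Mrpl53 in PERK -/- MEFs at 5 and 8 h did so as well.

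Mrpl18 of the central protuberance stood at 126 TPM in untreated PERK WT MEFs and at 125, 72.3, 75.9 and 79.3 TPM after Tg, and at 119 TPM in untreated PERK -/- MEFs and 148, 149.6, 165 and 158 TPM after Tg. In NIH3T3 cells it stood at 94.6, 127 and 56.5 TPM. From 2 h on the PERK WT values lay below, and the PERK -/- values above, all untreated MEF values. The log2 changes were -0.00, -0.80, -0.73 and -0.67 in PERK WT MEFs, the 1 h value being 0.02 by CPM, and 0.32, 0.34, 0.48 and 0.41 in PERK -/- MEFs.

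Mrpl30 of the large subunit stood at 77.8 TPM in untreated PERK WT MEFs and at 54.7, 46.3, 43.6 and 40.7 TPM after Tg, at 59.7 TPM in untreated PERK -/- MEFs and 80.8, 102, 61.8 and 63.0 TPM after Tg, and at 69.7, 74.1 and 41.6 TPM in NIH3T3 cells. The treated PERK WT values were the 4 lowest of the MEFs. The log2 changes were -0.51, -0.75, -0.84 and -0.93 in PERK WT MEFs and 0.43, 0.77, 0.05 and 0.08 in PERK -/- MEFs. Mrps33 had log2 changes of -0.32, -0.73, -0.24 and -0.45 in PERK WT MEFs, from 96.8 TPM to 77.7, 58.3, 82.0 and 71.1 TPM. For PERK -/- MEFs they were 0.38, 0.50, 0.60 and 0.35, from 83.7 TPM to 109, 119, 127 and 107 TPM, and in NIH3T3 cells Mrps33 stood at 289.5, 261 and 311 TPM. The treated PERK WT values of Mrps33 lay below every PERK -/- value, and the NIH3T3 values above every MEF value.

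Mrpl53 of the large subunit stood at 65.3 TPM in untreated PERK WT MEFs and at 93.8, 72.3, 94.96 and 102 TPM after Tg, at 84.8 TPM in untreated PERK -/- MEFs and 68.4, 60.3, 82.0 and 82.9 TPM after Tg, and at 189, 102 and 71.7 TPM in NIH3T3 cells. The NIH3T3 fall of -1.40 on the log2 scale at 7 h (counting interval -1.68 to -1.13) was the largest of any member there, and the small PERK -/- changes at 5 and 8 h, -0.05 and -0.03, were within counting error. With the GC trend removed the PERK WT change of 2 h turned from 0.15 to -0.21. Mrps11 had changes of 0.14, 0.69, 0.53 and 0.57 in PERK WT MEFs, from 30.7 TPM to 33.9, 49.4, 44.3 and 45.7 TPM. Its PERK -/- changes were -0.15, -0.09, -0.43 and -0.03, that of 2 h positive by CPM (0.06), TMM (0.00) and DESeq2 (0.02), from 46.1 TPM to 41.7, 43.4, 34.2 and 45.2 TPM, and in NIH3T3 cells it fell from 123 TPM to 95.5 and 59.7 TPM. The values of Mrps11 in the MEF genotypes overlapped, and the NIH3T3 values were the highest. Mrps27, a pentatricopeptide repeat protein, had changes of 0.07, 0.11, 0.08 and 0.08 in PERK WT MEFs, falling to 0.00 under TMM and DESeq2 at 5 h and to -0.01 under both at 8 h, and -0.22, -0.30, -0.11 and -0.05 in PERK -/- MEFs. It stayed between 42.8 and 46.2 TPM in the 5 PERK WT libraries, between 34.8 and 42.98 TPM in the 5 PERK -/- libraries and between 21.6 and 29.5 TPM in the 3 NIH3T3 libraries, the MEF genotypes overlapping through the untreated PERK -/- library.

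The promoters of Mrps11 and Mrpl53 are shown because both genes were up in all 4 treated PERK WT libraries and among the 3 members 2-fold down by TPM in NIH3T3 cells at 7 h. Capitals mark the YY1 letters AAGATGGCG, on the opposite strand and 108 bases before the start of Mrps11, at chr7:78783011-78783160 (+), and the ETS letters 59 and, on the opposite strand, 16 bases before the start of Mrpl53, at chr6:83108988-83109137 (+), in RefSeq build GRCm38.p6.
Mrps11 promoter: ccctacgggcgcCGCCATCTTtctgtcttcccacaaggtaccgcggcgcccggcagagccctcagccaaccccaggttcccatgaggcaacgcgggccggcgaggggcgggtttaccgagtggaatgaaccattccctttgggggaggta
Mrpl53 promoter: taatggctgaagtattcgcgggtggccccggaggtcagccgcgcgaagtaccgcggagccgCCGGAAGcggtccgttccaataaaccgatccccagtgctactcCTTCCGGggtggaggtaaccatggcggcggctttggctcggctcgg

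**Figure D4:**
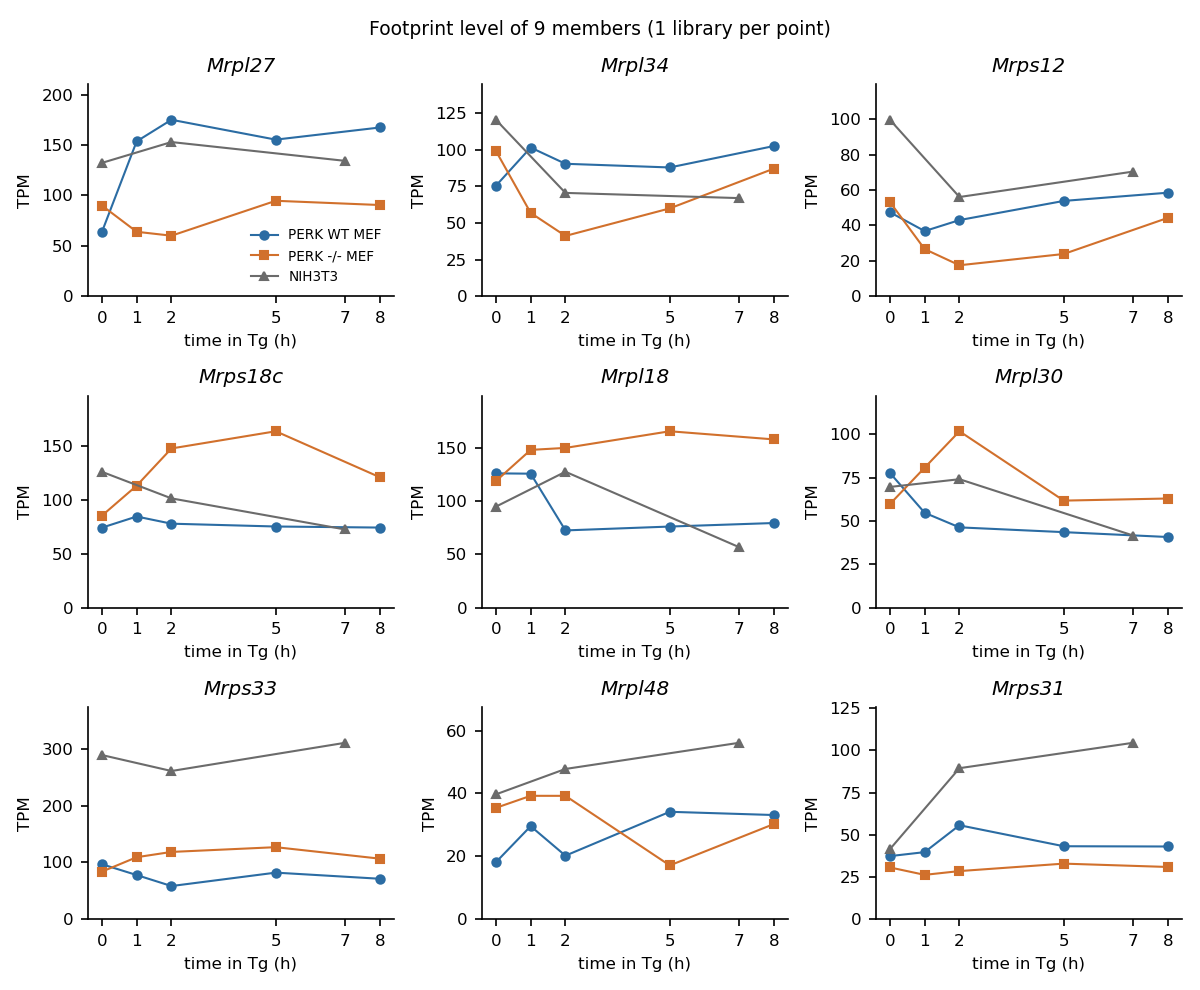
TPM by hours of Tg of Mrpl27, Mrpl34, Mrps12, Mrps18c, Mrpl18, Mrpl30, Mrps33, Mrpl48 and Mrps31 in PERK WT MEFs, PERK -/- MEFs and NIH3T3 cells, 1 library per point. Mrpl27 rises from 63.7 to 154 TPM within 1 h in PERK WT MEFs, while PERK -/- MEFs go from 90.1 to 63.9 TPM, and Mrps31 rises from 41.4 to 105 TPM by 7 h in NIH3T3 cells.

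Mrps31, of the small subunit, was the member 2-fold up in NIH3T3 cells. It stood there at 41.4 TPM untreated, 89.5 TPM at 2 h and 105 TPM at 7 h. In PERK WT MEFs it stood at 37.3, 39.7, 55.7, 43.2 and 43.1 TPM and in PERK -/- MEFs at 30.6, 26.2, 28.5, 32.9 and 30.9 TPM, so that the treated NIH3T3 values lay above every MEF value. The NIH3T3 changes were 1.11 and 1.34 by TPM and 1.36 (counting interval 1.15 to 1.56) and 1.41 (1.25 to 1.57) by CPM. Besides Mrpl53, the members 2-fold down by TPM in NIH3T3 cells at 7 h were Mrps11 (-1.05) and Mrpl54 (-1.003), both close to the threshold. Mrps11 was short of it by CPM (-0.87), TMM (-0.96) and DESeq2 (-0.94), with thinned counts (-0.74) and with the GC trend removed (-0.95), and Mrpl54 under TMM (-0.91) and DESeq2 (-0.90), with thinned counts (-0.97) and with the GC trend removed (-0.89).

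The PERK -/- library of 5 h held 5 members 2-fold down, of which 4 rest there on fewer than 100 counts, namely Mrpl57 (41), Mrpl41 (48), Mrps12 (70) and Mrpl48 (83), so that among members with at least 100 counts Mrpl17 alone was 2-fold down (2.41% of all genes with such counts), and its call was lost with thinned counts (-0.93). Mrpl57 went from 53.9 TPM untreated to 21.03 TPM at 5 h and 54.8 TPM at 8 h, Mrpl17 from 196 to 94.8 and 160.2 TPM, Mrpl41 from 38.9 to 16.9 and 29.2 TPM, and Mrpl48 from 35.4 to 17.1 and 30.3 TPM. At 5 h the log2 changes were -1.36 for Mrpl57, -1.05 for Mrpl17, -1.21 for Mrpl41 and -1.05 for Mrpl48, the latter -0.86 by CPM (counting interval -1.27 to -0.45). With thinned counts, 18 against 23 in the control, Mrpl57 came to -0.35, so that its call was lost too, while Mrpl41 came to -1.115 and Mrpl48 to -1.49. This was 1 random draw from 41 counts against 86 in the control. The calls of Mrpl57 and Mrpl17 were kept by CPM, under TMM and DESeq2 and with the GC trend removed. Mrps18a, which despite its symbol sits in the large subunit, was the member 2-fold down in PERK -/- MEFs at 8 h, from 70.7 TPM untreated through 61.9, 51.3 and 49.4 TPM to 29.9 TPM. In PERK WT MEFs it stood at 56.1 TPM untreated and, after a fall to 42.4 TPM at 1 h, at 75.6, 73.3 and 83.0 TPM.

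Successive libraries of the same cells differ in hours of Tg as well as in sampling, and the parts of each cannot be told apart. The standard deviation of the member log2 differences between PERK WT libraries was 0.33 from 1 to 2 h, 0.24 from 2 to 5 h and 0.14 from 5 to 8 h, beside 0.46, 0.35 and 0.19 for all expressed genes, with 0 members 2-fold apart beside 4.04%, 1.80% and 0.144% of all. Between PERK -/- libraries it was 0.27, 0.53 and 0.46 beside 0.30, 0.61 and 0.54, with 0, 4 and 2 members 2-fold apart (0%, 5.19% and 2.60%) beside 0.997%, 10.5% and 6.90% of all. Between the NIH3T3 libraries it was 0.46 beside 0.63, with 2 members (2.60%) beside 10.5% of all.

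By place in the large subunit, the central protuberance (Mrpl18, Mrpl27, Mrpl38, Mrpl40, Mrpl46 and Mrpl48) had medians of 0.19, 0.30, 0.51 and 0.58 in PERK WT MEFs, -0.02, 0.04, -0.15 and 0.14 in PERK -/- MEFs, and 0.24 and 0.13 in NIH3T3 cells. Its members went both ways in PERK WT MEFs. Mrpl18 ran there from -0.80 to -0.00, Mrpl40 from -0.16 to 0.07, Mrpl38 from -0.43 to 0.57 and Mrpl27 from 1.27 to 1.46. The stalk (Mrpl10, Mrpl11 and Mrpl12), which recruits translation factors, had 0.08, 0.12, 0.18 and 0.33, then -0.22, -0.13, 0.14 and 0.03, and -0.27 and -0.81. Mrpl12, present in several copies per ribosome, fell in NIH3T3 cells from 227 TPM to 159 and 123 TPM, and Mrpl11 from 158 to 131 and 90.1 TPM, while Mrpl10 went from 91.7 to 79.0 and 107 TPM. The peptide exit (Mrpl22, Mrpl23, Mrpl24, Mrpl45 and Mrpl47) had 0.18, 0.24, 0.25 and 0.17, then -0.09, -0.01, -0.09 and 0.12, and -0.23 and 0.26. Mrpl45, which holds the exit to the inner membrane, lay between 70.5 and 85.4 TPM in PERK WT MEFs and between 86.4 and 120.2 TPM in PERK -/- MEFs. As for Mrps14 and the other members named with it above, these ranges did not overlap, and the share of all expressed genes was not counted.

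Member changes were set beside the GC content of the coding sequences, taken from GENCODE for build GRCm38, which gave a value for all 77 members and 98.4% of expressed genes. Members had a median of 192 codons, from 65 to 442, against 453 for all expressed genes, and a median GC content of 53.2% against 52.8%. Across the 77 members, which share the libraries of each comparison and are not replicates, Spearman's rho of change and GC content was -0.04, 0.31, 0.55 and 0.62 in PERK WT MEFs, -0.57, -0.72, -0.17 and -0.11 in PERK -/- MEFs, and -0.43 and -0.23 in NIH3T3 cells. Across all expressed genes it was 0.24, 0.35, 0.41 and 0.46, then -0.37, -0.47, -0.08 and -0.02, and -0.11 and -0.06. Between the untreated PERK -/- and PERK WT libraries it was 0.42 across members and 0.18 across all genes.

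The 25 members of highest GC content, 56.3% to 65.6%, had a positive change in 10, 16, 25 and 24 cases in PERK WT MEFs (40%, 64%, 100% and 96%), beside 56.8%, 63.5%, 68.1% and 71.2% of the 2891 expressed genes in that GC range. In PERK -/- MEFs it was 1, 1, 9 and 11 (4%, 4%, 36% and 44%) beside 17.4%, 10.2%, 39.6% and 51.6%, and in NIH3T3 cells 3 and 8 (12% and 32%) beside 30.4% and 40.5% of 2719. Their medians were -0.05, 0.15, 0.38 and 0.54 in PERK WT MEFs, where all genes in that GC range had 0.09, 0.22, 0.29 and 0.34. Those of PERK -/- MEFs were -0.24, -0.34, -0.16 and -0.03 against -0.26, -0.41, -0.03 and 0.02, and in NIH3T3 cells -0.37 and -0.07 against -0.22 and -0.04. Of these 25 members, 24 (96%) were higher in the untreated PERK -/- than in the untreated PERK WT library, beside 64.3% of all genes in that range. The median of that difference was 0.29 against 0.19. Of the 25 members of lowest GC content 11 (44%) were higher there, beside 51.9%. The 25 members of lowest GC content, 41.6% to 51.1%, had medians of 0.01, -0.10, -0.12 and -0.18 in PERK WT MEFs against -0.07, -0.11, -0.10 and -0.13 for all genes in that range. Those of PERK -/- MEFs were 0.16, 0.18, 0.01 and 0.01 against 0.02, 0.02, 0.00 and 0.04, and in NIH3T3 cells -0.00 and 0.14 against -0.095 and 0.00. Times of a genotype share their control, and the cause was not tested.

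**Figure D5:**
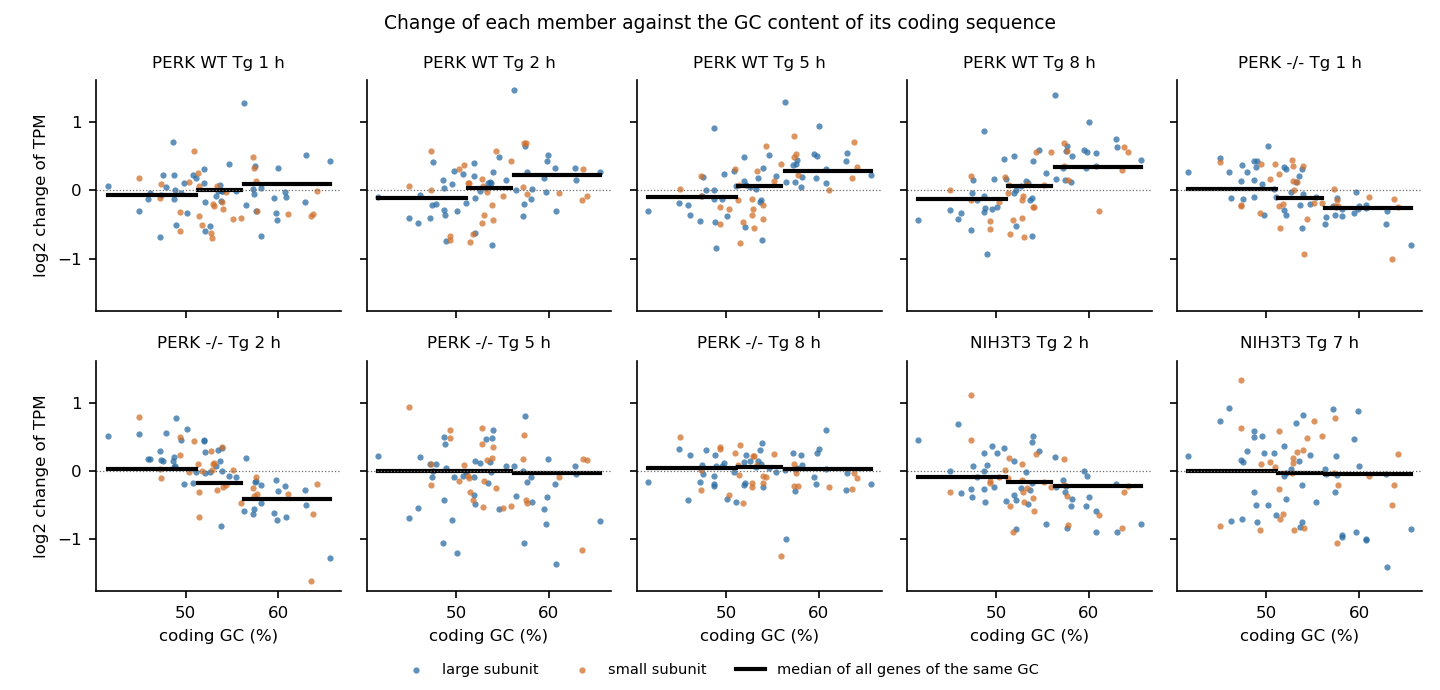
Log2 TPM change of each member against the GC content of its coding sequence in each of the 10 Tg libraries, with black lines at the median of all expressed genes in 3 GC ranges. Members climb to the right in PERK WT MEFs at 8 h (rho 0.62) and descend in PERK -/- MEFs at 2 h (rho -0.72).

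Stretches of coding sequence, bases 31 to 120 of the GENCODE coding sequence of build GRCm38 with G and C in capitals, are shown for Mrpl34 and Mrps12, which are rich in GC and fell in PERK -/- MEFs, and for Mrpl30 and Mrps18c, which are poor in it and rose there. These examples were picked for the contrast, and not every member of like GC content went the same way. Mrps26 (64.2%) and Mrps34 (63.8%) rose in PERK -/- MEFs at 5 h, from 57.8 to 64.6 TPM and from 56.7 to 63.8 TPM. Mrps22 (47.3%) had a median change of -0.21 there. Mrpl30 itself went only from 59.7 TPM untreated to 61.8 and 63.0 TPM at 5 and 8 h. G and C made up 57 of the 90 bases (63.3%) in Mrpl34, 61 (67.8%) in Mrps12, 39 (43.3%) in Mrpl30 and 44 (48.9%) in Mrps18c. Over the whole coding sequence the GC content was 65.6%, 63.5%, 48.96% and 44.99%.
Mrpl34 coding: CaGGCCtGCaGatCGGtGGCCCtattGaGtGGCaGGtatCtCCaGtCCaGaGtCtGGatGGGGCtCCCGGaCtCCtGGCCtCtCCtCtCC
Mrps12 coding: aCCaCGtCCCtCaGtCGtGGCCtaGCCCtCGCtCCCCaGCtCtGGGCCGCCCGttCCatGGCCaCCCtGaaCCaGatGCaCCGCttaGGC
Mrpl30 coding: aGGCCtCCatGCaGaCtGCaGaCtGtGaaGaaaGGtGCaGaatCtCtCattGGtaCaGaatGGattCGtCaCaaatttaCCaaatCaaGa
Mrps18c coding: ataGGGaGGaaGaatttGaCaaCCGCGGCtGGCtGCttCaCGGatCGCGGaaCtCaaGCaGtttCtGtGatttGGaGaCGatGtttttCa

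Promoters of 300 bases could be matched for 68 of the 77 members in RefSeq build GRCm38.p6, with 74 start sites, and were searched on both strands. The ETS letters CCGGAAG occurred in 25 members (36.8%), against 22.1% of 8045 expressed genes and 9.93% of all 27025 genes. The NRF1 letters GCGCATGCG occurred in 7 members (10.3% against 4.65% and 1.95%) and the YY1 letters AAGATGGCG in 8 (11.8% against 4.14% and 1.64%). Counted by promoter, the shares were 33.8%, 9.46% and 10.8% of 74 against 8.86%, 1.75% and 1.40% of 32851. At least 1 of these motifs occurred in 35 members (51.5%), 28.7% of expressed genes and 12.7% of all genes, so that some members held more than 1. A match of such short letters is a description, not a site.

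A divergent start site on the opposite strand, at most 500 bases upstream or overlapping by at most 100 bases, was found for 24 of the 68 members (35.3%), against 20.1% of expressed genes and 11.9% of all genes. Mrpl46 and Mrps11, whose starts lie 42 bases apart on chromosome 7, were the pair in which both genes are members. In PERK WT MEFs Mrpl46 had changes of 0.39, 0.49, 0.52 and 0.58, where Mrps11 had 0.14, 0.69, 0.53 and 0.57. In PERK -/- MEFs Mrpl46 had -0.19, -0.07, -0.55 and 0.05, within counting error at 1, 2 and 8 h, beside -0.15, -0.09, -0.43 and -0.03 for Mrps11. In NIH3T3 cells they went opposite ways, with 0.30 and 0.24 for Mrpl46 and -0.37 and -1.05 for Mrps11. Members lay on 17 chromosomes, 10 of them on chromosome 11.

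The other parts of the mitochondrial translation pathway were described in the same way. The 22 genes of mitoribosome assembly and rRNA modification had medians of 0.38, 0.38, 0.46 and 0.46 in PERK WT MEFs, with 18, 19, 17 and 19 up (81.8%, 86.4%, 77.3% and 86.4%), and of -0.03, -0.09, 0.14 and -0.05 in PERK -/- MEFs, with 9, 9, 12 and 10 up (40.9%, 40.9%, 54.5% and 45.5%). The 21 of them expressed in NIH3T3 cells had 0.28 and 0.37, with 13 and 15 up (61.9% and 71.4%). The shares of all expressed genes with a positive change are those given above, from 46.5% to 50.4% in PERK WT MEFs, from 32.7% to 53.7% in PERK -/- MEFs, and 35.1% and 44.03% in NIH3T3 cells. The 6 mitoribosomal proteins under other symbols (Dap3, Ptcd3, Aurkaip1, Chchd1, Ict1 and Gadd45gip1) had -0.16, 0.07, 0.15 and 0.18, then 0.02, 0.08, -0.12 and -0.09, and -0.39 and 0.17. The 11 mitochondrial translation factors had -0.07, -0.13, -0.10 and -0.09, then 0.06, -0.05, -0.08 and -0.01, and 0.16 and 0.55. The 17 mitochondrial aminoacyl-tRNA synthetases had 0.00, 0.12, 0.36 and 0.22, then -0.01, -0.18, 0.00 and 0.11, and 0.17 and 0.31.

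The 7 genes of mitochondrial transcription and RNA binding had -0.15, -0.03, -0.04 and -0.02 in PERK WT MEFs, 0.02, 0.00, 0.27 and 0.05 in PERK -/- MEFs, and -0.16 and 0.25 in NIH3T3 cells. The 9 mitochondrial chaperones and proteases had -0.03, -0.06, 0.10 and -0.00, then 0.18, 0.15, -0.02 and -0.06, and -0.14 and 0.32. In that list 2 genes, singled out after their values were seen, were 2-fold from their control in PERK WT MEFs. Of all expressed genes, from 4.33% to 6.45% were 2-fold up and from 2.29% to 4.01% down there, by time. Lonp1, the matrix protease, had changes of 0.28, 1.28, 1.97 and 2.14 in PERK WT MEFs and -0.24, -0.43, -0.02 and 0.24 in PERK -/- MEFs. Hspe1, the co-chaperonin of Hspd1, had -1.14, -1.12, -1.12 and -1.13 in PERK WT MEFs and -0.09, 0.19, -0.34 and -0.46 in PERK -/- MEFs.

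The 13 mtDNA-encoded genes, the transcripts the mitoribosome itself translates, had medians of 1.41, 0.58, 0.25 and 0.18 in PERK WT MEFs, 0.16, 0.32, 0.82 and 1.06 in PERK -/- MEFs, and 1.80 and 0.46 in NIH3T3 cells. Their share of the counts went from 0.361% to 0.961%, 0.563%, 0.451% and 0.427% in PERK WT MEFs, from 0.308% to 0.339%, 0.378%, 0.529% and 0.611% in PERK -/- MEFs, and from 0.511% to 1.93% and 0.722% in NIH3T3 cells. These are shares of the footprints of a library, not absolute amounts. The nuclear subunits of oxidative phosphorylation, 77 in MEFs and 78 in NIH3T3 cells, had 0.04, 0.09, 0.16 and 0.14, then -0.14, -0.13, 0.04 and 0.07, and -0.34 and -0.19. The cytosolic ribosomal proteins, 75 and 74, had -0.33, -0.26, -0.16 and -0.22, then 0.27, 0.29, -0.10 and -0.45, and -0.29 and 0.09.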

How the data were processed

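Ribosome footprints were measured in 13 libraries of mouse fibroblasts, 5 of PERK WT MEFs, 5 of PERK -/- MEFs and 3 of NIH3T3 cells, with 1 library per condition. Cells were lysed without cycloheximide. Fragments from 22 to 34 nt long were retained by the authors, who discarded rRNA and tRNA matches found by STAR. What remained was aligned by Bowtie2 against mm10 RefSeq coding regions, shortened by 30 nt on either side, and RSEM gave values per gene; versions of these tools were not used here. The authors deposited expected counts per gene, whole numbers without scaling between libraries. They also deposited TPM over the shortened coding regions, scaled within each library to a constant sum. MEFs and NIH3T3 cells have separate tables.

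From the deposited TPM, genes with a mean of at least 2 TPM in a table were kept, values under 4 were set to 4, and a log2 ratio set every treated library against the untreated cells of its kind. A gene at least 2-fold from its control was called up or down. Counts divided by the library total gave CPM and the exact conditional (Clopper-Pearson) 95% interval of each ratio, and medians carry a binomial order-statistic interval, joined for a difference of medians as the root of the summed squares of their arms, which all cover counting or sampling of genes only, since reads are not independent molecules and members not replicates. A count of 0 allows up to 3 counts. With 1 library per group no test was run.

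R 4.3.3 with edgeR 4.0.16 (TMM factors) and DESeq2 1.42.0 (size factors) were used. Tables were handled in Python 3.11.15 (pandas 2.3.3 and numpy 2.4.6), intervals came from scipy 1.17.1, lowess from statsmodels 0.14.6 and figures from matplotlib 3.10.9. The ratio, its interval and the calls were tested on simulated data. Library totals ran from 2525029 to 14799515 counts.

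The members and the lists beside them were chosen with earlier results of these data known. The lists were mitoribosomal proteins under other symbols, mitochondrial translation factors, mitoribosome assembly and rRNA modification, mitochondrial aminoacyl-tRNA synthetases, mitochondrial transcription and RNA binding, mitochondrial chaperones and proteases, mtDNA-encoded genes, nuclear oxidative phosphorylation subunits, cytosolic ribosomal proteins, bacterial homologues and mitochondria-specific members, and 3 places in the large subunit. Members to name were, in each comparison, the 2 largest rises and the 2 largest falls among those with at least 100 counts in both libraries, every member 2-fold from its control the same way in 2 or more comparisons, the most and least abundant member of each subunit, the members of the 3 places, and Eif2ak3. Others were named after their values were seen.

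Coding GC content came from GENCODE coding sequences of GRCm38 and promoters from RefSeq build GRCm38.p6. Alternatives set the floor at 1 TPM, added 1 TPM as a pseudocount in its place, raised the lowest mean to 5 TPM or dropped it, and used CPM, TMM and DESeq2 scaling, counts thinned once at random to the smallest library, members with at least 100 counts in both libraries, 1.5-fold calls, background genes of like protein length or control TPM, and Mrps18a and Mrps30 counted with the large subunit. Removing a lowess trend on GC content (fraction 0.3) and leaving out Mrps36 were chosen after seeing the data.

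Markers checked the cell type. Fibroblast markers summed to between 4829 and 8983 TPM in each library, of which Vim made up between 1549 and 3315 TPM and, in NIH3T3 cells, S100a4 between 1823 and 5328 TPM. Not all of them were high, as Pdgfra lay between 0.27 and 13.2 TPM, Dcn was at most 6.67 TPM in each library and Col3a1 was at most 1.67 TPM in NIH3T3 cells. Epithelial markers summed to at most 17.7 TPM, leukocyte markers to at most 4.49 TPM and endothelial markers to at most 5.14 TPM. Dcn was listed at 0 in the 3 NIH3T3 libraries, where Krt8 reached 15.6 TPM.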

Additional observations from a re-analysis of the deposited data

Results flagged for a closer look

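In MEFs, 7 members had a TPM change of one sign in all 4 treated PERK WT libraries and of the opposite sign in all 4 treated PERK -/- libraries. The sign was counted whatever the size of the change. Some changes lay within counting error by CPM, among them every PERK WT change of Mrps27 and every PERK -/- change of Mrps11. The PERK -/- changes of Mrpl30 and Mrpl53 at 5 and 8 h did so too. The median log2 change in PERK WT MEFs minus that in PERK -/- MEFs was 1.11 for Mrpl34, 0.71 for Mrpl53, 0.67 for Mrps11 and 0.25 for Mrps27, which were up in PERK WT MEFs. It was -1.07 for Mrpl18, -1.05 for Mrpl30 and -0.82 for Mrps33, which were down there.

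The difference between genotypes was not tested, since each condition had 1 library and the 4 treated libraries of a genotype share a control. Up in PERK WT were 4 of 77 members (5.19%) and 4.53% of all expressed genes, and down there 3 (3.90%) and 3.44%, so that members showed the pattern about as often as other genes. In CPM, TMM or DESeq2 scaling a sign was not kept for 3 of the 7. Mrpl18 at 1 h in PERK WT MEFs was -0.00 by TPM and 0.02 by CPM. Mrps11 at 2 h in PERK -/- MEFs was -0.09 by TPM and 0.06 by CPM. Mrps27 at 8 h in PERK WT MEFs was 0.08 by TPM and -0.01 with TMM or DESeq2 factors. With the trend on coding GC content removed, signs changed for Mrpl34 in PERK WT MEFs at 2, 5 and 8 h (-0.18, -0.27 and -0.11), for Mrpl53 in PERK WT MEFs at 2 h (-0.21) and in PERK -/- MEFs at 5 h (0.01), and for Mrps11 in PERK -/- MEFs at 1 and 2 h (0.04 and 0.17). With thinned counts they changed in PERK -/- MEFs at 8 h for Mrpl30 (-0.06), Mrpl34 (0.17) and Mrpl53 (0.22), and for Mrps11 at 1 and 2 h (0.02 and 0.07). Mrps33 was the member of the 7 whose signs held under each alternative tried.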

How the results depend on the processing

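No paired analysis was possible because each condition had 1 library, and no library could be left out. The large-subunit median minus the small-subunit median, whose intervals are too wide to judge stability by, took the other sign in 9 of 120 comparisons with an alternative. The member median stayed within its interval in 96 of 100 but took the other sign in 13, and the member median minus that of all genes did so in 116 of 120 but took the other sign in 21. A named member's change stayed within its counting interval in 3571 of 3690. The number of members at least 2-fold up or down stayed within 1.5 times its value in 69 of 100. That number adds both directions, and in NIH3T3 cells at 7 h it was 4 by TPM, TMM and DESeq2, made up of 1 up and 3 down by TPM and 3 up and 1 down under TMM and DESeq2. Where a result moved or reversed, the cause was not tested. These tallies include alternatives whose outcome for members was fixed in advance. The lowest member value of any library was 13.3 TPM. A floor of 1 TPM, a mean of at least 5 TPM or no filter therefore left every member value unchanged. Each of these kept 10 of 10 member medians, subunit differences and counts of 2-fold members, and 410 of 410 changes of named members.

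By CPM the member median in NIH3T3 cells at 2 h was -0.10, and the count of 2-fold members was 0 in PERK WT MEFs at 1 h (8.445% of all genes up and 3.16% down), 2 at 8 h, both up (10.2% of all), and in PERK -/- MEFs 0 at 1 h (1.81% up and 5.40% down) and 2 at 8 h, both down (4.37%). Under both TMM and DESeq2 the count was 2 in PERK WT MEFs at 8 h, 1 up (5.08% and 5.04% of all) and 1 down (4.99% and 5.03%), and in PERK -/- MEFs 0 at 1 h (1.03% up and 2.54% down under both) and 2 at 8 h, both down (3.21% and 3.20%). The DESeq2 member median in PERK -/- MEFs at 2 h was 0.09, in a scaling that moved the median of all genes by 0.11. Counts thinned to the smallest library gave member medians of 0.079 in PERK -/- MEFs at 2 h and -0.11 in NIH3T3 cells at 2 h. The thinned counts of 2-fold members were 0, 0, 3 and 0 in PERK WT MEFs at 1, 2, 5 and 8 h, those of 5 h being 2 up and 1 down, beside 9.22%, 10.1%, 10.9% and 12.002% of all genes up and 4.02%, 5.54%, 5.68% and 5.97% down. They were 0 in PERK -/- MEFs at 1 h (2.78% of all up and 7.14% down), 2 at 2 h, both down (9.39%), 7 at 5 h, 1 up (5.53%) and 6 down (8.685%), 1 at 8 h, down (4.985%), 2 in NIH3T3 cells at 2 h, 1 up (10.5% of all) and 1 down (3.95%), and 8 at 7 h, 3 up (9.56%) and 5 down (14.1%). The thinned changes of Mrpl33 (0.16) and Mrps35 (0.013) in PERK WT MEFs at 8 h were reversed.

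At 1.5-fold the count was 8, 11, 9 and 13 in PERK WT MEFs (10.4%, 14.3%, 11.7% and 16.9%, beside 23.02%, 27.55%, 28.3% and 29.85% of all genes), 4, 13, 14 and 3 in PERK -/- MEFs (5.19%, 16.9%, 18.2% and 3.90%, beside 17.2%, 22.4%, 23.3% and 20.8%), and 12 and 30 in NIH3T3 cells (15.6% and 38.96%, beside 30.1% and 36.8%), as a lower threshold passes more genes. The 30 were 10 up and 20 down (16.7% and 20.1% of all). Among members with at least 100 counts in both libraries it was 0, 1 and 1 in PERK -/- MEFs at 1, 2 and 5 h, fewer members being counted, all down (1.875%, 5.39% and 2.41% of such genes), and with a pseudocount it was 0 in PERK -/- MEFs at 1 h (1.06% of all up and 4.045% down).

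Against expressed genes of like control TPM, the member median minus theirs took the other sign, with 0.048 in PERK WT MEFs at 1 h, 0.069 in NIH3T3 cells at 7 h and, reversed, 0.023 in NIH3T3 cells at 2 h. With no filter on low values it was -0.23 in NIH3T3 cells at 2 h. It took the other sign in PERK -/- MEFs at 2 h (-0.016) and 8 h (0.008). Without that filter the median of all genes was 0, so that these values are the member medians themselves. With thinned counts the difference took the other sign in PERK -/- MEFs at 1 h (0.009) and 5 h (0.02) and in NIH3T3 cells at 7 h (0.048). There it also took the other sign with a floor of 1 TPM (0.048), a pseudocount (0.045), a mean of at least 5 TPM (0.025), by CPM (0.062) and among members with at least 100 counts (0.047), and in PERK WT MEFs at 2 h with that floor (-0.017), with a pseudocount (-0.018) and by CPM (-0.023). With the GC trend removed, an alternative chosen after seeing the data, it was -0.016 in PERK WT MEFs at 5 h, reversed, and it took the other sign in PERK WT MEFs at 2 h (-0.065) and 8 h (-0.015), in PERK -/- MEFs at 1 h (0.064) and in NIH3T3 cells at 7 h (0.049). The same removal reversed 7 changes of named members. In PERK WT MEFs Mrpl54 came to -0.039 at 5 h and -0.04 at 8 h, Mrpl12 to -0.027, Mrpl34 to -0.11 and Mrps12 to -0.19 at 8 h. In PERK -/- MEFs Mrpl4 came to 0.003 at 1 h and Mrpl50 to -0.013 at 2 h.

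Depth limits the PERK WT library of 2 h most, where the lowest member had 18 counts.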

Other observations

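TPM and counts did not move in parallel for 8 members in MEFs, whose ratio of TPM to CPM varied by more than 0.25 log2 across the 10 libraries (10.4%, beside 15.8% of the 8473 expressed genes with counts at least as high as the lowest member's). They were Mrpl15 (0.30), Mrpl23 (0.27), Mrpl27 (0.35), Mrpl48 (0.27), Mrps2 (0.44), Mrps9 (0.44), Mrps23 (0.37) and Mrps35 (0.56). RSEM weighs the counts of a gene by the lengths of its transcript forms, and which forms the footprints came from was not analysed here.

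Mrps36 matches the symbol rule, although its protein is known as a component of the 2-oxoglutarate dehydrogenase complex. Leaving it out kept the member median within its interval in 10 of 10 comparisons, but the member median in PERK -/- MEFs at 8 h went from 0.01 to just under 0, and the large-subunit median minus the small-subunit median in PERK -/- MEFs at 5 h took the other sign, from -0.003 to 0.002.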
